A study of Mus musculus with 38 samples.

Results

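IM1 and IM2 are interstitial macrophages of the mouse lung that the sort separated by a single surface marker, MHC class II. Both were CD206 high, and IM1 was MHC class II low where IM2 was MHC class II high. The comparison was taken from the labelled columns of the gene count table and rests on 6 of the 12 libraries of the series, 3 of IM1 and 3 of IM2. The mice were untreated C57Bl/6 animals aged 8 to 10 weeks. Cells were enriched for MerTK and then gated as DAPI negative, CD64 positive and CD11b positive, with antibodies to CD24, CD43, Siglec F, Ly6G, B220, NK1.1 and CD3 used to leave out other cells. The 2 further populations served as reference: IM3, which is MHC class II high and CD206 low, and alveolar macrophages (AM), sorted on CD11c and Siglec F. RNA from about 50000 sorted cells was amplified by SMART-Seq and sequenced on Ion Proton. Whether the replicates are separate mice or pools is not stated in the labels. The p-values therefore measure only the spread between libraries, which may be technical and was estimated over all 12 of the series.

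MHC class II molecules are pairs of an alpha and a beta chain that carry peptides from the endosome to the cell surface, where CD4 T cells read them. The invariant chain, encoded by Cd74, guides newly made pairs to the endosome, and the DM proteins (H2-DMa, H2-DMb1) help exchange its remnant for peptide. Transcription of these genes depends on the coactivator CIITA, which is recruited to the X and Y boxes of their promoters by the RFX and NF-Y factors. Interstitial macrophages of the lung are commonly divided into a CD206-high kind that lies near vessels and an MHC class II-high kind that lies near nerves and airways, and IM2 cells carry both surface markers.

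The promoter windows of 4 class II genes that were higher in IM2 are printed because these genes moved together and share short sequence elements. Sequences are those of RefSeq on GRCm38.p6, run from 250 bases before to 50 bases after the annotated start, and are written 5′ to 3′ on the strand of the gene. Of the 11 class II genes looked up, 8 had a window, and H2-Ab1, Cd74 and Ciita had none. The windows are chr17:34287774-34288073 on the minus strand for H2-Aa, and on the plus strand chr17:34305617-34305916 for H2-Eb1, chr17:34152941-34153240 for H2-DMb1 and chr17:34238655-34238954 for H2-Ob. Capitals mark the Y box, searched as TGATTGG on both strands, and an X box stretch, searched on both strands as AAC, any 2 bases and ATGATG and chosen from these windows after reading them. The motifs did not overlap.
H2-Aa: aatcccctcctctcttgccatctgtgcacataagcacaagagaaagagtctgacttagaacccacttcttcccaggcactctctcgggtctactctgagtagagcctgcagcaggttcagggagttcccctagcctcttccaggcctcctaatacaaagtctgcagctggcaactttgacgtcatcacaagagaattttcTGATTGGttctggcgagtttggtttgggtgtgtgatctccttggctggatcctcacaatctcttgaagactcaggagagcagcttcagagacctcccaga
H2-Eb1: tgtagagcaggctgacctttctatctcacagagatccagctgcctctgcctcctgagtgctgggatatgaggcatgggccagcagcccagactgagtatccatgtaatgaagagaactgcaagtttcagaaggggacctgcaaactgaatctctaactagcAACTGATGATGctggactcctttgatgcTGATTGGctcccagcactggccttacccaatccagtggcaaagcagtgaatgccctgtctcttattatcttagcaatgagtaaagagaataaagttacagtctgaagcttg
H2-DMb1: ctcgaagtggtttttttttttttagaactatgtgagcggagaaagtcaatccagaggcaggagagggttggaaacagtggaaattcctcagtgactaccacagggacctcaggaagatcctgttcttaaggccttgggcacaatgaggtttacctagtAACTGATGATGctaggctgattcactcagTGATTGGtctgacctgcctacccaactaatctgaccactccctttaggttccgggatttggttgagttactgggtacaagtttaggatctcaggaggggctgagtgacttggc
H2-Ob: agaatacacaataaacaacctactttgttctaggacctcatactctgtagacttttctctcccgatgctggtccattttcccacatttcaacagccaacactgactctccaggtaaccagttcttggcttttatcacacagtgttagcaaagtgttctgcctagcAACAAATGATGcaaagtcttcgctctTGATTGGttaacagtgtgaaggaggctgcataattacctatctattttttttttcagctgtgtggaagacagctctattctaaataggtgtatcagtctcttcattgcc
The Y box was found in 7 of the 8 class II genes with a window and lay 43 bases before the start in H2-Aa, 54 in H2-Eb1, 56 in H2-DMb1 and 52 in H2-Ob. The gene without it was H2-DMa. Its 2 windows, chr17:34122582-34122881 and chr17:34125268-34125567, lay upstream of the gene model used for counting, which starts at 34135182. The sequence next to that start was therefore not searched. The Y box is common: 11.6% of the 10228 tested genes with a window held it, against 10.2% of the 127 genes called higher in IM2 that had one. The X box stretch was found in 13 of the 10228 genes (0.127%), and 4 of these were H2-Eb1, H2-DMb1, H2-DMb2 and H2-Ob, where 15 to 18 bases separated it from the Y box. A match describes the letters of the window and is not evidence of binding.

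The 6 libraries held 11818981 to 15652508 reads assigned to genes, which were 71.06% to 76.26% of mapped reads, and 18172 to 18908 genes had a count. A count of 0 allowed up to 3 reads, or 0.254 CPM (reads of a gene relative to the library total) in the shallowest of them, and this limit covers counting error only. The IM1 libraries were less alike than the IM2 libraries: correlations of log2 CPM between replicates were 0.957 to 0.98 in IM1 and 0.978 to 0.982 in IM2. IM1 replicate A lay outside the range of the 3 IM2 libraries in 74.6% of the genes tested, IM1 replicate C in 59.1% and IM1 replicate B in 43.4%. A further library of the same population would also often lie outside a range of 3, and that share was not estimated.

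Few genes differed beyond the spread of the libraries across the MHC class II gate, and most of those were higher in IM2. With edgeR's quasi-likelihood test, 241 of 14095 genes (1.71%) were called at an adjusted p under 0.05, 172 higher in IM2 (1.22%) and 69 higher in IM1 (0.49%). Of these, 162 differed at least 2-fold, 118 higher in IM2 and 44 higher in IM1. In all 241 called genes the 3 IM1 libraries did not overlap the 3 IM2 libraries, a separation that 2179 genes (15.5%) showed in all. Over all genes tested the log2 fold changes had a median of -0.004. The spread was estimated over all 12 libraries, and a fit of only the 6 IM1 and IM2 libraries called 71 genes. The labels do not say what a replicate letter marks, though deviations of same-lettered IM1 and IM2 libraries correlated positively. A fit with the letter as a block called 392 genes, 275 higher in IM2 and 117 higher in IM1, with 239 of the 241 among them. The count depended on single libraries: it was 229 without IM1 replicate A, 190 of them among the 241, 1904 without IM1 replicate B, 121 without IM1 replicate C, 110 without IM2 replicate B and 123 without IM2 replicate C. Calls made in each of the 6 fits that left out 1 library numbered 86, 66 higher in IM2 and 20 higher in IM1.

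The genes of the class II molecules themselves were among the largest differences. The gate selected surface MHC class II, so the direction of this group is no independent evidence. The values are levels of transcripts and not of protein. H2-Eb1, a beta chain (chr17:34305877-34316199 on GRCm38), stood at 265.2, 200.4 and 256.6 CPM in IM1 replicates A, B and C and at 4869, 4513 and 5101 CPM in IM2. The log2 fold change was 4.33 ± 0.19 (SE, adjusted p = 2.58e-09). H2-Aa, an alpha chain (chr17:34282744-34287827), rose from 506.7, 388.7 and 539.4 CPM to 7031, 6922 and 7373 CPM, a log2 fold change of 3.89 ± 0.20 (adjusted p = 1.16e-08). Its partner H2-Ab1 (chr17:34263209-34269418) rose from 743.5, 573.1 and 825.7 CPM to 9406, 10061 and 10853 CPM (3.82 ± 0.20). For each of these chains the lowest IM2 library lay far above the highest IM1 library, and IM1 replicate B was the lowest of all 6.

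The invariant chain gene Cd74 stood at 1986, 1793 and 1865 CPM in IM1 and at 22579, 20772 and 21708 CPM in IM2, a log2 fold change of 3.53 ± 0.16 (adjusted p = 2.58e-09). Class II transcripts were also counted in alveolar macrophages, where H2-Eb1 averaged 159.1 CPM, Cd74 1947 CPM, H2-Aa 469.5 CPM and H2-Ab1 686.6 CPM. Per transcript length, as TPM, which also divides by exon length, Cd74 was at 3547 in IM1 and 41793 in IM2, H2-Ab1 at 1157 and 16814, H2-Eb1 at 536.7 and 11082, and H2-Aa at 675.8 and 10318. Cd74 was the highest of the 4 in both populations. H2-Eb2, a rarely expressed beta chain gene, had 1 read over the 3 IM1 libraries and 37 over the 3 IM2 libraries (adjusted p = 0.0141), and its call ended without IM2 replicate C (adjusted p = 0.0512). All 5 class II molecule genes tested were called, with a median log2 fold change of 3.89. In a bulk library, fewer cells with a transcript and less transcript per cell cannot be told apart.

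**Figure D1:**
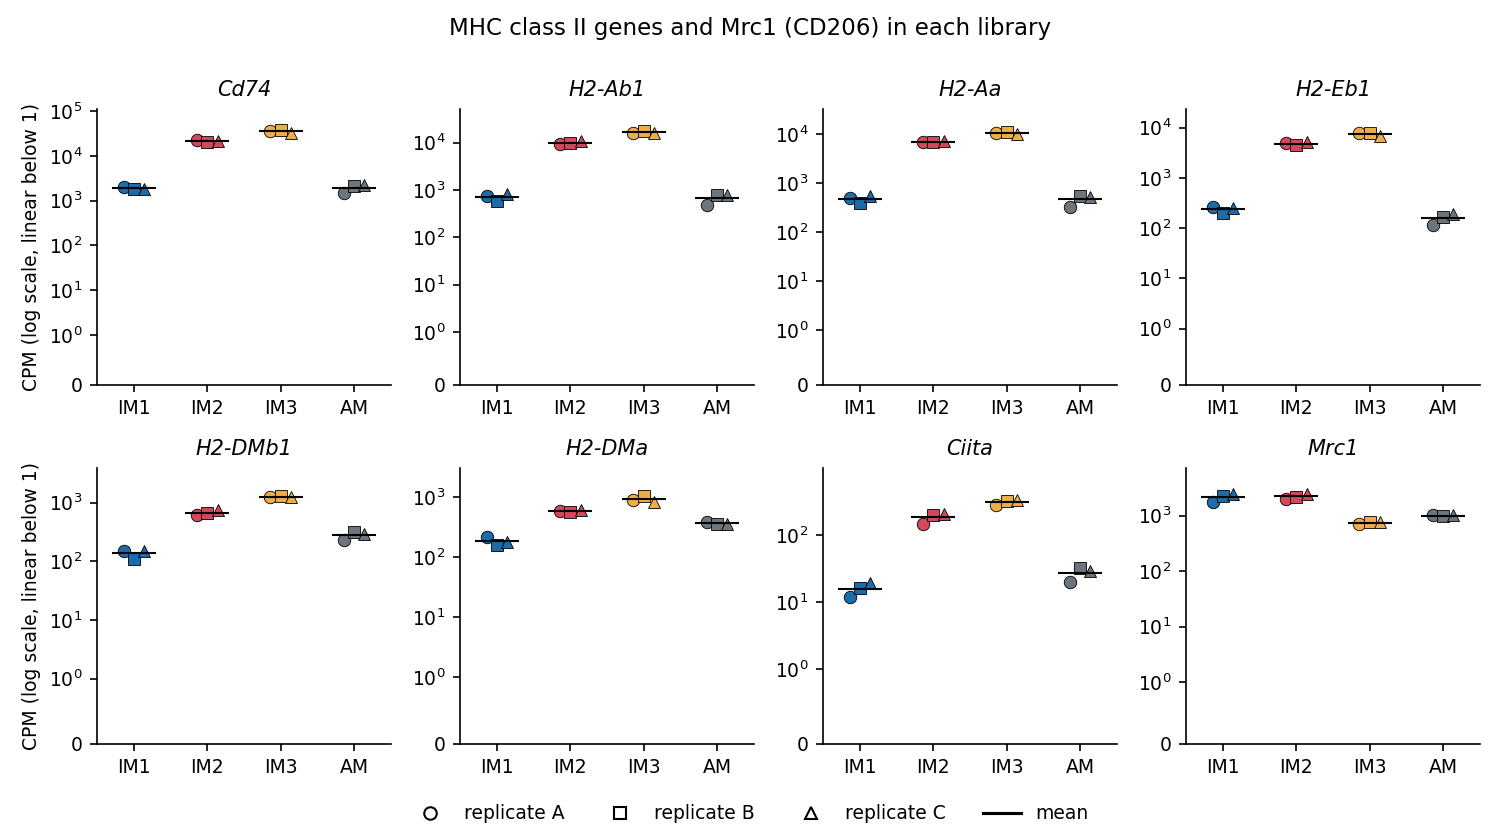
CPM (log axis, linear below 1) of class II genes and Mrc1 in every library of IM1, IM2, IM3 and AM; points are libraries, with replicates A, B and C as circles, squares and triangles, and lines are means. The class II genes step up between IM1 and IM2 with no overlap, while Mrc1 lies at 1756 to 2407 CPM in IM1 and 2015 to 2402 CPM in IM2.

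Ciita, the coactivator of the whole group (chr16:10488178-10527564), followed the class II chains. It stood at 11.7, 16.4 and 19.2 CPM in IM1 and at 145.9, 196.9 and 203.6 CPM in IM2, a log2 fold change of 3.52 ± 0.21 (adjusted p = 1.18e-07). The factors that recruit it were not called: Rfx5 had a value of 0.52 (adjusted p = 0.28), Rfxap -0.23, Rfxank -0.12, Creb1 0.14, and the NF-Y subunits Nfya, Nfyb and Nfyc 0.11, -0.17 and -0.14. March1, a ubiquitin ligase that removes class II from the surface, had a value of 0.32 (adjusted p = 0.191). Ciita was 1 of 10 called among the genes of class II transcription and turnover, with a list median of 0.12.

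Of 11 genes of peptide loading and antigen proteolysis, 4 were higher in IM2 and 2 higher in IM1, with a median of 0.04. The fold changes of the loading genes lay below those of the chains, a difference that was not tested. H2-DMb1 went from 151.6, 110.3 and 147.5 CPM to 609.8, 667.2 and 734.3 CPM (log2 fold change 2.30 ± 0.16, adjusted p = 4.33e-07). H2-DMa went from 222.1, 162.1 and 181.8 CPM to 605.2, 564.8 and 623.9 CPM (1.66 ± 0.14, adjusted p = 4.12e-06). H2-DMb2 rose by 1.88 ± 0.21. H2-Ob, the beta chain of the DO protein that restrains DM, rose by 0.99 ± 0.22 from 7.86 to 15.7 CPM (adjusted p = 0.0296), a call that ended without IM1 replicate C (adjusted p = 0.11) or without any 1 of the IM2 replicates (0.0646 to 0.129). Its partner H2-Oa averaged 0.226 CPM in IM1 and 0.992 CPM in IM2 and was not called (adjusted p = 0.0975).

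The proteases of the list did not share that direction. Ctsd, cathepsin D, was higher in IM1, at 3317, 2756 and 3259 CPM against 1738, 1601 and 1880 CPM in IM2 (-0.84 ± 0.12, adjusted p = 0.00125). Ctsl, cathepsin L, was also higher in IM1 (-0.75 ± 0.17, adjusted p = 0.0397), a call made in 1 of the 6 fits that left out a library. Ctss, the protease that trims the invariant chain in many antigen-presenting cells, had a value of -0.29 (adjusted p = 0.447), with 2926, 1652 and 1746 CPM in IM1 against 1556, 1786 and 1832 CPM in IM2. Ctsb (-0.21), the asparaginyl endopeptidase gene Lgmn (0.04) and the thiol reductase gene Ifi30 (-0.35) were not called either.

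Most other genes that lie among the class II genes were not called. Between H2-Oa and Btnl1 on chromosome 17 (34092340 to 34385776), 17 genes were tested. Of these, 9 are class II genes, and 8 of the 9 were called. The class I pathway genes among them had values near 0: Psmb9 -0.07 (adjusted p = 0.857), Psmb8 -0.04 (0.939), Tap1 0.16 (0.604) and Tap2 -0.10 (0.662), and the bromodomain gene Brd2 had 0.26 (0.391). Of the 8 other genes in the region 2 were called, both at low level, where 1.71% of all genes tested were called. The butyrophilin-like gene Btnl1 averaged 0.659 CPM in IM1 and 3.35 CPM in IM2 (2.29 ± 0.47, adjusted p = 0.0198). The transcript Gm20513 lies between H2-Aa and H2-Eb1 and was called with adjusted p = 0.0234, with 2 reads over the IM1 libraries and 51 over the IM2 libraries. It is annotated as antisense, and counting did not use strand, so the strand of its reads is not known.

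Other parts of antigen presentation were divided. Of 15 genes of MHC class I presentation only Nlrc5, the class I counterpart of Ciita, was called, at 18.4, 25.9 and 21.1 CPM in IM1 and 38.8, 48 and 40.4 CPM in IM2 (0.96 ± 0.20, adjusted p = 0.0217), a call that ended without IM1 replicate C (adjusted p = 0.0909), IM2 replicate B (0.119) or IM2 replicate C (0.0684). H2-K1 (-0.06), H2-D1 (-0.08) and B2m (-0.12) were not called, and the list median was -0.00. Of 17 costimulatory and inhibitory ligands 4 were called, all higher in IM2, with a median of 0.19, and 2 when IM1 replicate C, IM2 replicate B or IM2 replicate C was left out. The B7 genes Cd80 (0.12) and Cd86 (-0.13) and the CD40 gene (Cd40, -0.05) were not among them, with adjusted p-values of 0.744, 0.683 and 0.886. Slamf7, a receptor of the SLAM family, stood at 73.3, 88.7 and 110.7 CPM in IM1 and 174.2, 197 and 214.9 CPM in IM2 (1.10 ± 0.17, adjusted p = 0.00269). Cd244a, another SLAM family receptor, rose by 2.40 ± 0.35 from 0.277 to 1.55 CPM. Icosl, the ligand of ICOS, rose by 0.85 ± 0.19 and Cd72 by 0.64 ± 0.14, and each lost its call when IM1 replicate C, IM2 replicate B or IM2 replicate C was left out, Icosl also without IM2 replicate A (adjusted p = 0.0609 to 0.137).

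Mrc1, which encodes CD206, the marker on which both populations were high, was not called. It stood at 1756, 2283 and 2407 CPM in IM1 and at 2015, 2195 and 2402 CPM in IM2 (0.04 ± 0.13, adjusted p = 0.908). Of 23 markers of CD206-high perivascular macrophages 1 was called, Vsig4, the complement receptor that clears opsonised particles. Vsig4 (chromosome X, 96247203 to 96293438) stood at 104.8, 61.5 and 83.3 CPM in IM1 and at 16.8, 10.6 and 23 CPM in IM2, a log2 fold change of -2.30 ± 0.28 (adjusted p = 0.00041), and it fell further to 0.75 CPM in IM3 (-4.49, adjusted p = 1.38e-06). The hyaluronan receptor gene Lyve1 had 1014, 458.8 and 485.5 CPM in IM1 against 477, 317.7 and 310.9 CPM in IM2 (-0.82 ± 0.27, adjusted p = 0.153), so that IM2 replicate A overlapped IM1. The folate receptor gene Folr2 (-0.70, adjusted p = 0.29) and the phosphatidylserine receptor gene Timd4 (-0.56, adjusted p = 0.2) were not called. The median of the list was -0.40 and 3 of its 23 values were above 0. With the replicate block 5 members were called, all higher in IM1, 9 were called without IM1 replicate B, and 1 higher in IM2 and 2 higher in IM1 were called without IM1 replicate A.

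Among called protein-coding genes with a mean of at least 10 CPM in the higher population, Adam23 had the largest rise. It encodes a cell surface disintegrin of the ADAM family (chr1:63445891-63596276). It stood at 0.699, 0.73 and 0.389 CPM in IM1 and at 13.5, 16.6 and 11.6 CPM in IM2, a log2 fold change of 4.51 ± 0.32 (adjusted p = 3.64e-06), and no read of it was counted in AM. Klrb1b, an inhibitory lectin-like receptor, stood at 1.75, 1.86 and 2.01 CPM in IM1 and 13.1, 27.2 and 18.8 CPM in IM2 (3.39 ± 0.26, adjusted p = 2.07e-06). H2-M2, a non-classical class I gene, rose by 3.01 ± 0.33 from 5.41 to 44.3 CPM. The adhesion gene Hepacam2 rose by 2.08 ± 0.24 (9.29 to 39.3 CPM), the serine protease gene Prss30 by 2.09 ± 0.25 (3.19 to 13.4 CPM) and Ipcef1 by 2.17 ± 0.32 (2.64 to 11.9 CPM). Plbd1, a phospholipase B-like gene, lay at 146.5, 143.6 and 147 CPM in IM1 and 335.4, 369.1 and 410 CPM in IM2 (1.35 ± 0.14, adjusted p = 9.72e-05). Reads that fitted several places were not counted, so genes with close copies, such as Klrb1b, H2-M2, H2-DMb1 and H2-DMb2, can be undercounted.

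**Figure D2:**
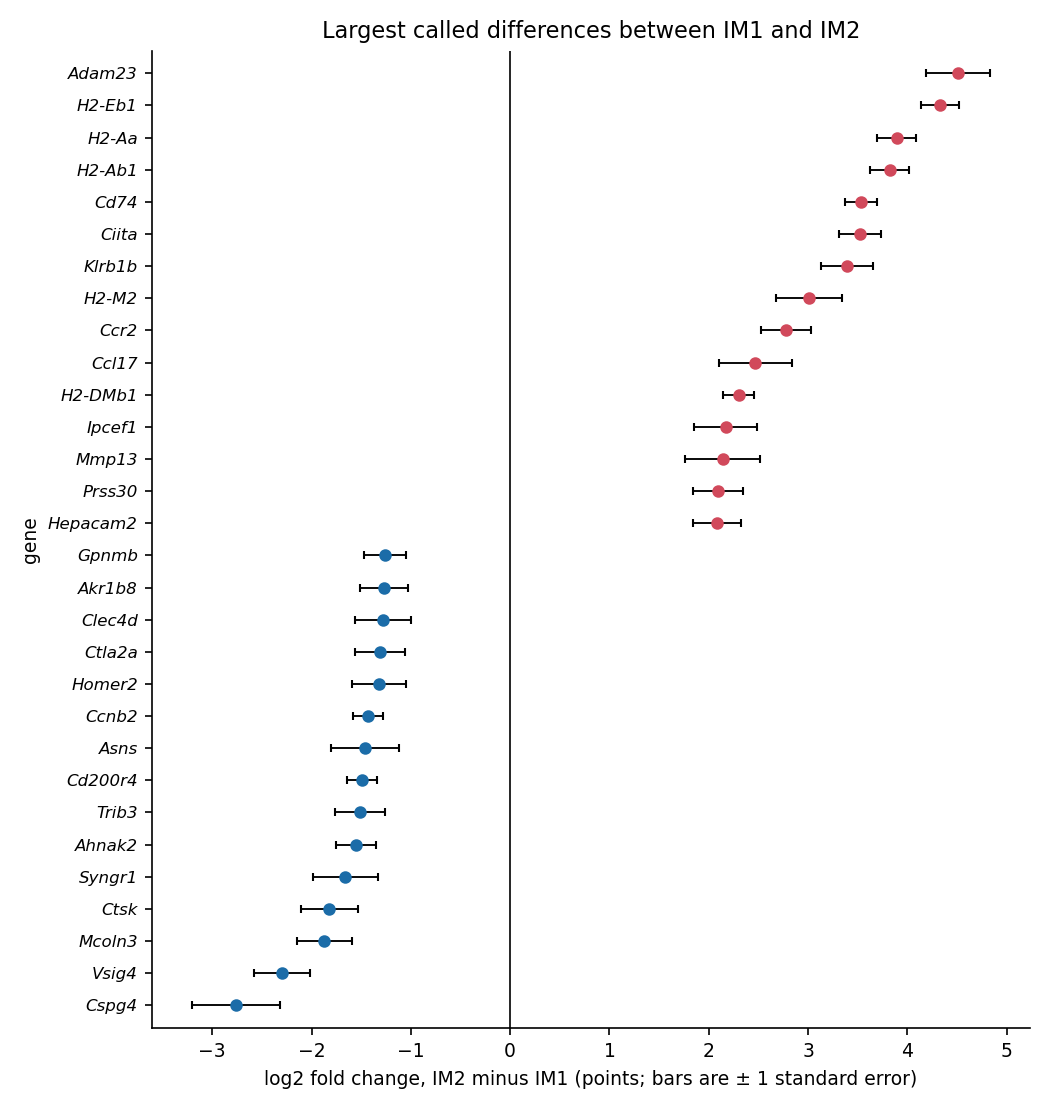
Log2 fold change of IM2 minus IM1 (points) with 1 standard error (bars) for the 15 called genes with the largest change in each direction among those with a mean of at least 10 CPM. Values run from -2.76 for Cspg4 to 4.51 for Adam23, and class II genes and Ciita fill 5 of the 6 highest places.

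Chemokine receptors and chemokines moved in few members. Of 30 chemokine and cytokine receptors 4 were called, all higher in IM2, with a median of 0.13. With the replicate block 7 were called, all higher in IM2. Without IM1 replicate B 7 were higher in IM2 and 2 higher in IM1. Without IM2 replicate A 2 were called, and without IM1 replicate C or IM2 replicate B 1, all higher in IM2. Ccr2, the receptor that draws monocytes out of the marrow (chr9:124101950-124113557), stood at 44.7, 85.5 and 82.8 CPM in IM1 and 329.4, 583.9 and 554.5 CPM in IM2 (2.78 ± 0.25, adjusted p = 1.35e-05). In both populations replicate A was the lowest. Csf2ra, the alpha chain of the GM-CSF receptor, rose by 0.53 ± 0.11 (375.1 to 541 CPM), the decoy receptor gene Il1r2 by 2.63 ± 0.52 (0.322 to 1.99 CPM) and Il27ra by 1.00 ± 0.24 (6.13 to 12.3 CPM). Each of these lost its call without IM1 replicate C and without IM2 replicate B (adjusted p = 0.0603 to 0.132). Csf2ra and Il1r2 also lost their calls without IM2 replicate A (0.0609 and 0.0554). Il27ra also lost its call without IM1 replicate A (0.088) or IM2 replicate C (0.174). Of 22 chemokines 2 were called, and 4 without IM1 replicate B. Ccl17, a ligand of CCR4, stood at 3.5, 1.06 and 1.36 CPM in IM1 and 12.6, 10.2 and 9.08 CPM in IM2 (2.47 ± 0.37, adjusted p = 0.0025). Cxcl12, the ligand of CXCR4, stood at 24, 21.4 and 25.3 CPM against 55.2, 39.2 and 58.2 CPM (1.11 ± 0.22, adjusted p = 0.021), a call that ended without IM1 replicate C (0.0642), IM2 replicate A (0.0669) or IM2 replicate C (0.107). Stromal cells also make Cxcl12. Fibroblast markers summed to 733 to 896 CPM in IM1 and 830 to 1033 CPM in IM2 (0 of 11 called). Most of this was Gsn, which averaged 734.1 CPM in IM1, 823 CPM in IM2 and 527.4 CPM in AM. Of the 11 fibroblast markers 8 had values above 0, with a median of 0.19. The collagen gene Col1a1 averaged 7.98 CPM in IM1 and 18.6 CPM in IM2 (1.20, adjusted p = 0.208, and 0.0269 with the replicate block). Endothelial markers summed to 354 to 378 CPM and 223 to 268 CPM (0 of 13 called). Among them Ednrb averaged 214.4 and 124 CPM and Cdh5 5.06 and 4.75 CPM. The part of stromal cells in Cxcl12 was not tested.

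Markers of monocytes bear on Ccr2 and were counted as a list. Of 14 monocyte markers 11 could be tested and 2, Ccr2 and the Fc receptor gene Fcgr4, were called. The call of Fcgr4 ended without IM1 replicate C (adjusted p = 0.122) or any 1 of the IM2 replicates (0.0588 to 0.094). Their summed level was 102 to 140 CPM in IM1 and 400 to 649 CPM in IM2, and without Ccr2 it was 45.2 to 57.3 CPM in IM1 and 65.1 to 70.6 CPM in IM2. Ly6c2, the defining marker of classical monocytes, averaged 0.3 CPM in IM1 and 0.534 CPM in IM2. Conventional dendritic cell markers summed to 185 to 203 CPM in IM1 and 235 to 249 CPM in IM2, with 0 of 11 called. Among them Zbtb46 averaged 41.2 and 40.9 CPM and Flt3 2.77 and 6.22 CPM. The part of these cells in the rise of Ccr2 or of the class II genes was not tested.

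The matrix enzyme genes Mmp12 and Mmp13, the cytokine gene Il1b and the CD11c gene Itgax were also higher in IM2. Mmp12, the macrophage elastase, stood at 170.9, 196.9 and 250.7 CPM in IM1 and 337.3, 607.5 and 666.5 CPM in IM2 (1.38 ± 0.23, adjusted p = 0.00504). Mmp13, a collagenase, rose by 2.14 ± 0.38 from 5.86 to 26.3 CPM (adjusted p = 0.00809), a call that ended without IM1 replicate A (adjusted p = 0.0582) or IM2 replicate C (0.0512). Itgax, which encodes CD11c, stood at 13, 32.4 and 20.3 CPM in IM1 and 71.5, 112.7 and 86.1 CPM in IM2 (2.03 ± 0.25, adjusted p = 0.000377), and it was the only called member of the 10 sort gate genes tested. Mertk, Fcgr1 (CD64) and Itgam (CD11b), on which both populations were gated, had values of 0.01, -0.30 and 0.27 and were not called. Il1b rose by 1.25 ± 0.29 (adjusted p = 0.0423) from 24.9 to 59.3 CPM, and its call ended without IM1 replicate A (adjusted p = 0.126) and under 3 other omissions. Axl, a receptor for apoptotic cells, stood at 253, 505.5 and 462.2 CPM against 627.9, 817 and 805.6 CPM (0.88 ± 0.19, adjusted p = 0.0305), and its call ended without IM1 replicate C (0.0589), IM2 replicate B (0.142) or IM2 replicate C (0.125).

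The question whether a gene follows the MHC class II gate or continues to change across the CD206 gate was addressed by setting the step from IM1 to IM2 beside the step from IM2 to IM3, which share the IM2 libraries. Between IM2 and IM3 1611 of 14095 genes (11.4%) were called, and the 2 steps differed in 329 genes (2.33%). The class II chains took most of their step at the MHC class II gate. The sort set this, since IM2 and IM3 were both MHC class II high, so it is no independent evidence. H2-Eb1 averaged 240.7, 4828 and 7519 CPM in IM1, IM2 and IM3, and its 2 steps differed by 3.69 ± 0.27 on the log2 scale (adjusted p = 1.64e-06). The steps of H2-Aa differed by 3.33 ± 0.29, those of Cd74 by 2.83 (adjusted p = 6.26e-06) and those of Ciita by 2.76 (adjusted p = 0.000133). Adam23 had the same shape, at 0.606, 13.9 and 23.6 CPM, with steps that differed by 3.75 ± 0.45 (adjusted p = 0.000322).

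Several genes that rose at the MHC class II gate rose again from IM2 to IM3. Klrb1b averaged 1.87, 19.7 and 146 CPM, with steps of 3.39 and 2.89 (adjusted p = 2.9e-07 for the second) that were not called different (adjusted p = 0.674). H2-M2 averaged 5.41, 44.3 and 276.1 CPM, Itgax 21.9, 90.1 and 452.2 CPM and Mmp12 206.2, 537.1 and 3034 CPM, with adjusted p-values of 0.829, 0.837 and 0.239 for the difference of steps. Ccr2 averaged 71, 489.2 and 1155 CPM, and its steps of 2.78 and 1.24 were not called different (adjusted p = 0.0542). For these genes IM2 lay between the other interstitial populations.

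A few genes had their highest mean in IM2. Cxcl12 averaged 23.6, 50.9 and 10.8 CPM in IM1, IM2 and IM3, with steps that differed by 3.35 (adjusted p = 0.000145), and Ccl17 averaged 1.97, 10.6 and 5.7 CPM (3.37, adjusted p = 0.00394). For Ccl17 the fall from IM2 to IM3 was not itself called (-0.90, adjusted p = 0.112). Lyve1, Folr2 and Mrc1 changed at the CD206 gate instead: Lyve1 averaged 652.9, 368.5 and 8.02 CPM, and its steps differed by 4.70 (adjusted p = 2.23e-05). Mrc1 fell by 1.56 from IM2 to IM3 (adjusted p = 1.08e-06), and its steps differed by 1.60 (adjusted p = 0.000496). CD206 itself set that gate, so the direction of Mrc1 is no independent evidence.

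**Figure D3:**
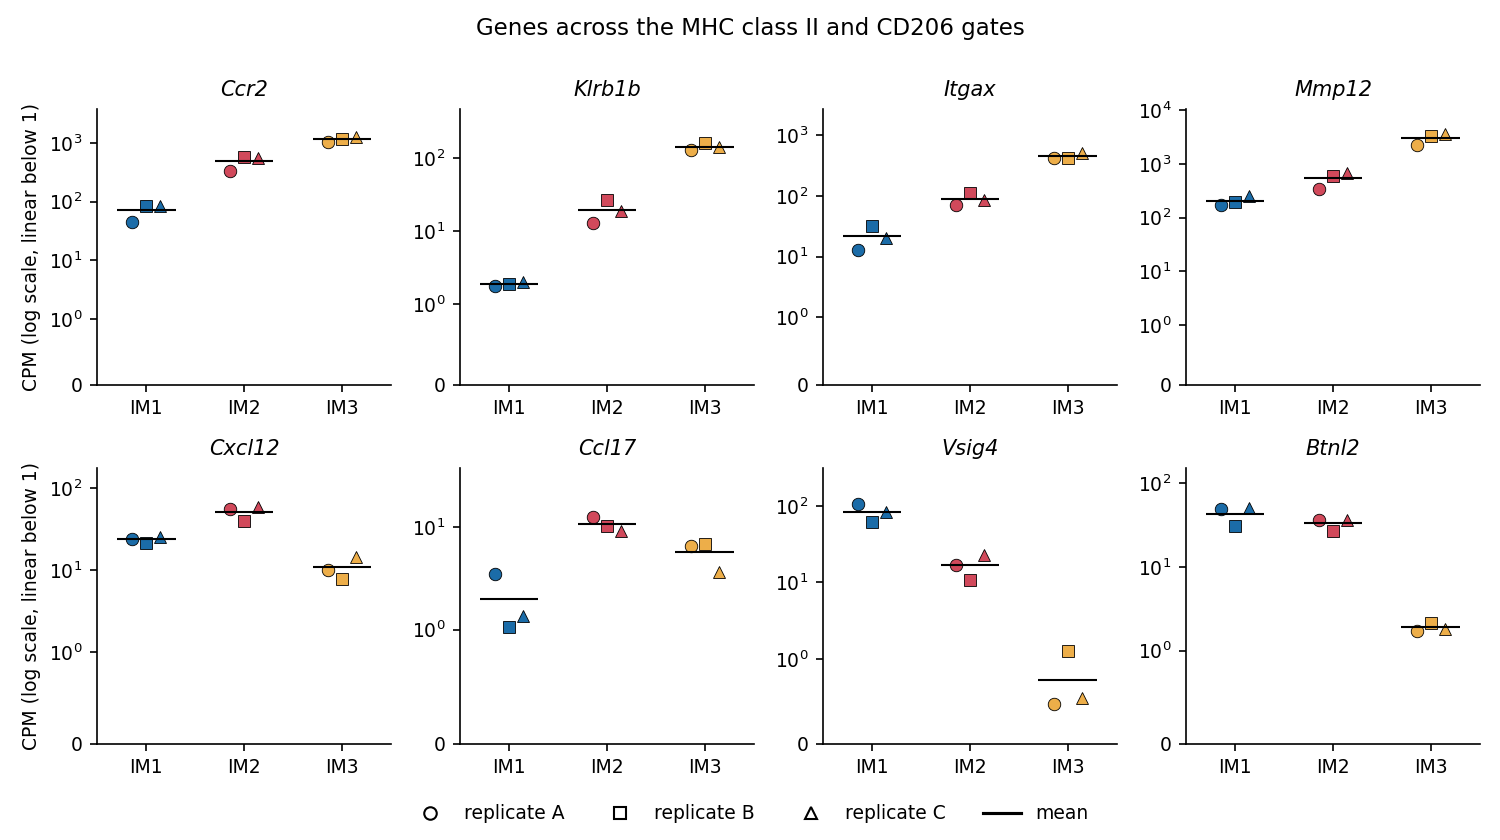
CPM (log axis, linear below 1) of 8 genes in every library of IM1, IM2 and IM3; points are libraries, with replicates A, B and C as circles, squares and triangles, and lines are means. Ccr2, Klrb1b, Itgax and Mmp12 rise at both steps, Cxcl12 and Ccl17 are highest in IM2, Vsig4 falls at both steps, and Btnl2 falls from 33 CPM in IM2 to 1.89 CPM in IM3.

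Genes higher in IM1 numbered 69. Besides Vsig4, the leading one was Cspg4, the NG2 proteoglycan (chr9:56865104-56899870), at 9.44, 31.8 and 16.5 CPM in IM1 and 3.46, 4 and 1.14 CPM in IM2 (-2.76 ± 0.44, adjusted p = 0.00362). NG2 is also a pericyte marker: of the 9 markers of smooth muscle cells and pericytes, 7 were tested and Cspg4 alone was called. The summed level of that list, with Cspg4 included, was 31.1 to 50.4 CPM in IM1 and 23.4 to 27.9 CPM in IM2. Of the 7 tested markers 5 had values above 0, towards IM2, with a median of 0.56. Among the uncalled ones Acta2 averaged 7.68 CPM in IM1 and 5.97 CPM in IM2, and Des 4 and 6.66 CPM. The part of such cells in the difference of Cspg4 was not tested. Cd5l, a secreted scavenger protein of macrophages, averaged 9.18 and 2.36 CPM (-1.96 ± 0.39, adjusted p = 0.0156), a call that ended without IM1 replicate C (0.0552), IM2 replicate B (0.0927) or IM2 replicate C (0.0852). Ccn1, a matricellular protein, stood at 672.2, 589.9 and 595.9 CPM against 326, 309.1 and 382.3 CPM (-0.87 ± 0.14, adjusted p = 0.00405). Trib3, a pseudokinase of the stress response, averaged 14.6 and 5.1 CPM (-1.51 ± 0.25), and Asns, asparagine synthetase, 10.8 and 3.89 CPM (-1.46 ± 0.34, adjusted p = 0.0384, called in 2 of the 6 fits that left out a library). Syngr1 (-1.66), Homer2 (-1.32), the protease inhibitor gene Ctla2a (-1.31), the lectin gene Clec4d (-1.28) and the aldo-keto reductase gene Akr1b8 (-1.27) were called as well, each in 2 to 4 of those fits. Ahnak2, a large scaffold protein gene, stood at 13.5, 18.4 and 17.1 CPM against 4.97, 4.7 and 7 CPM (-1.55 ± 0.20, adjusted p = 0.000475) and was called in all 6.

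Lysosomal genes were higher in IM1 where they were called. Of 28 tested, 4 were higher in IM1 and 0 higher in IM2, with a median of -0.18, and without IM1 replicate B 8 were higher in IM1 and 2 in IM2. Beside Ctsd and Ctsl these were Ctsk, cathepsin K, at 17.1, 21.2 and 23.2 CPM in IM1 and 9.56, 2.81 and 5.17 CPM in IM2 (-1.82 ± 0.29, adjusted p = 0.00319), and Atp6v0d2, a subunit of the proton pump, at 36.4, 51.1 and 41 CPM against 23.7, 16.3 and 20.1 CPM (-1.10 ± 0.18, adjusted p = 0.00371). Gpnmb, a membrane glycoprotein of lipid-laden macrophages, stood at 53.5, 68 and 67.9 CPM against 26.4, 26.7 and 26.1 CPM (-1.26 ± 0.21, adjusted p = 0.00405). Mcoln3, a lysosomal cation channel gene, averaged 11 and 3.04 CPM (-1.87 ± 0.28), and Cd200r4, a receptor of the CD200R family, 39.2 and 13.9 CPM (-1.49 ± 0.15, adjusted p = 5.3e-05). The lysosome genes Lamp1 (-0.24), Lamp2 (-0.14) and Ctsa (-0.29) were not called.

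Abundant genes were also among those higher in IM1. Rnase4, a secreted ribonuclease, stood at 820.1, 470.4 and 610.7 CPM in IM1 and 402.9, 314.6 and 378.7 CPM in IM2 (-0.79 ± 0.18, adjusted p = 0.0307). The protease inhibitor gene Serpinb6a stood at 531, 309.6 and 362.7 CPM against 245.1, 229.1 and 236.9 CPM (-0.76 ± 0.17). In both genes replicate A was the highest of IM1, and 32.6% of the exon length of Rnase4 and 29.3% of that of Serpinb6a overlap other genes, which makes their counts uncertain. The actin-capping gene Capg (-0.54), the sialic acid lyase gene Npl (-0.89), Sh3bgrl2 (66 to 88.9 CPM in IM1 and 35.1 to 50 CPM in IM2) and Sh3bp5 (-0.56) were called with adjusted p-values of 0.0317, 0.0131, 0.0131 and 0.0229. Each of these 6 genes was called in 2 or 3 of the 6 fits that left out 1 library. Spp1, which encodes osteopontin, averaged 51.6 CPM in IM1, 27.3 CPM in IM2 and 1058 CPM in AM (-0.92, adjusted p = 0.0195). Its call ended without IM1 replicate C (0.0589), IM2 replicate B (0.0616) or IM2 replicate C (0.107).

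Several of these genes are abundant in alveolar macrophages, whose markers were measured in the same libraries. Ctsk averaged 886.7 CPM in AM, Mcoln3 568.6, Atp6v0d2 1978, Gpnmb 984.1 and Ctsd 23702 CPM. The 14 alveolar markers summed to 243 to 405 CPM in IM1 and 146 to 231 CPM in IM2, against 55769 to 62881 CPM in AM, and 1 of the 14, Atp6v0d2 itself, was called. As a share of the AM level, the markers had a median of 0.528% in IM1 and 0.365% in IM2. Ctsk stood at 2.31% of its AM level in IM1 and 0.659% in IM2, Mcoln3 at 1.93% and 0.534%, Gpnmb at 6.42% and 2.68% and Ctsd at 13.1% and 7.34%. Chil3, the most abundant of the markers, stood at 242.6, 189.8 and 122.8 CPM in IM1 and 113, 28.8 and 52.5 CPM in IM2 (-1.51 ± 0.39, adjusted p = 0.0663, and adjusted p = 0.0106 with the replicate block), which is 0.361% and 0.126% of its AM level. Siglecf, excluded by the gate, averaged 0.931 and 1.4 CPM. Whether RNA of alveolar macrophages gave part of the lower-level differences was not tested.

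**Figure D4:**
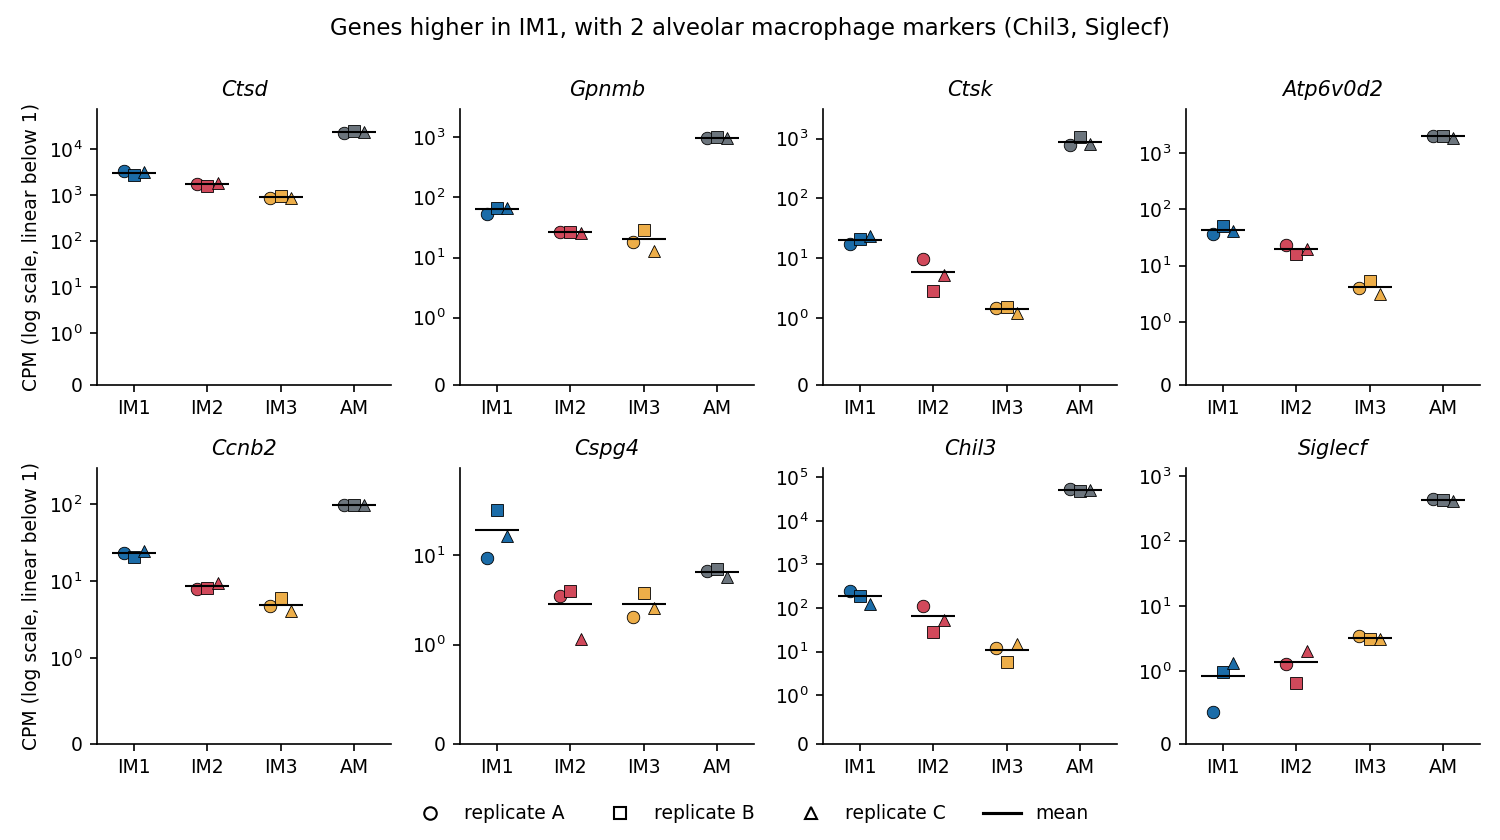
CPM (log axis, linear below 1) of 6 genes higher in IM1 and of the alveolar markers Chil3 and Siglecf in every library; points are libraries, with replicates A, B and C as circles, squares and triangles, and lines are means. Ctsd, Gpnmb, Ctsk, Atp6v0d2 and Ccnb2 are far higher in AM than in any interstitial library, and Cspg4 is highest in IM1.

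Of 30 cell cycle genes tested, 6 were called, all higher in IM1, with a median of -0.56 and 3 values above 0. Ccnb2, a mitotic cyclin (chr9:70407689-70421554), stood at 23.2, 20.8 and 24.8 CPM in IM1 and 7.98, 8.07 and 9.46 CPM in IM2 (-1.43 ± 0.15, adjusted p = 0.000108). The kinetochore gene Cenpf averaged 8.98 and 2.99 CPM (-1.58 ± 0.22, adjusted p = 0.00138) and the mitotic kinase gene Plk1 4.46 and 1.53 CPM (-1.56 ± 0.26, adjusted p = 0.00504). Birc5 (-1.34), Cdc20 (-1.05) and the ribonucleotide reductase gene Rrm2 (-0.82) were the others, and these 3 lost their calls without IM1 replicate C (adjusted p = 0.0589, 0.0635 and 0.193). Birc5 also lost its call without IM2 replicate C (0.0767), and Cdc20 without IM2 replicate A (0.0836) or B (0.116). Rrm2 also lost its call without any 1 of the IM2 replicates (0.132 to 0.136). The proliferation marker genes Mki67 (14.9 and 8.56 CPM, adjusted p = 0.14) and Top2a (17.1 and 10.4 CPM, adjusted p = 0.0634) were not called. Between 3 and 9 members were called in the fits that left out 1 library, all higher in IM1, with 3 without IM1 replicate C and 9 without IM1 replicate A. In AM, Ccnb2 averaged 97.5 CPM and Rrm2 198.2 CPM. In IM1 Ccnb2 stood at 23.5% of its AM level, Cenpf at 63.3% and Rrm2 at 4.43%.

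The remaining lists held few calls. Each of these lists had 0 called genes: 27 immediate early and dissociation stress genes (median 0.17), 39 macrophage and monocyte transcription factors (0.14), 16 genes of iron and haem handling (-0.25), 18 of glycolysis (-0.17) and 20 ribosomal protein genes (-0.22). With the replicate block 3 of the stress genes, 2 transcription factors and 1 iron gene were called, and without IM1 replicate B 8 transcription factors were. Cebpa, a myeloid factor, had the lowest adjusted p-value among the factors, 0.0552 (57.6 and 113.6 CPM). Of 30 interferon response genes Oas3 (1.60 ± 0.36) and Gbp2 (0.80 ± 0.17) were called, and Isg15 (0.16) and Ifit1 (-0.03) were not. Of 24 pattern recognition genes Tlr12 (1.85 ± 0.37) and Nlrp3 (0.66 ± 0.15) were called, and of 23 TGF-beta signalling genes Ltbp3 (0.92 ± 0.21). Each of these 5 lost its call under at least 2 of the omissions of 1 library. Of 19 complement genes Itgax and Vsig4 were called and C1qa (-0.06), C1qb (-0.33) and C1qc (-0.43) were not. Of 28 lipid handling genes Gpnmb alone was called, and Apoe had a value of -0.48 (adjusted p = 0.398). Of 19 C-type lectins 1 was higher in IM2 and 1, Clec4d, higher in IM1. The lectin gene Clec4b1 rose by 1.43 ± 0.20, from 15.6, 8.09 and 12.5 CPM to 36.2, 31.7 and 29.2 CPM (adjusted p = 0.00134). Of 29 growth factor and matrix genes Mmp12 and Mmp13 were higher in IM2 and Mmp8 (-1.59) and Spp1 higher in IM1. The lists of 18 shared macrophage genes, 7 Fc receptors, 20 cytokines, 16 genes of alternative activation and 26 integrins and adhesion molecules held 1 called gene each, in that order Axl, Fcgr4, Il1b, Ccl17 and Itgax, all higher in IM2. Over all marker lists of other cell types 5 genes were called, Atp6v0d2, Ccr2, Fcgr4, Mmp8 and Cspg4, and 11 with the replicate block. Fcgr4 and Mmp8 each kept their call in 2 of the 6 fits that left out 1 library, and Mmp8 lost it without IM1 replicate C (0.0937) or any 1 of the IM2 replicates (0.0569 to 0.137).

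**Figure D5:**
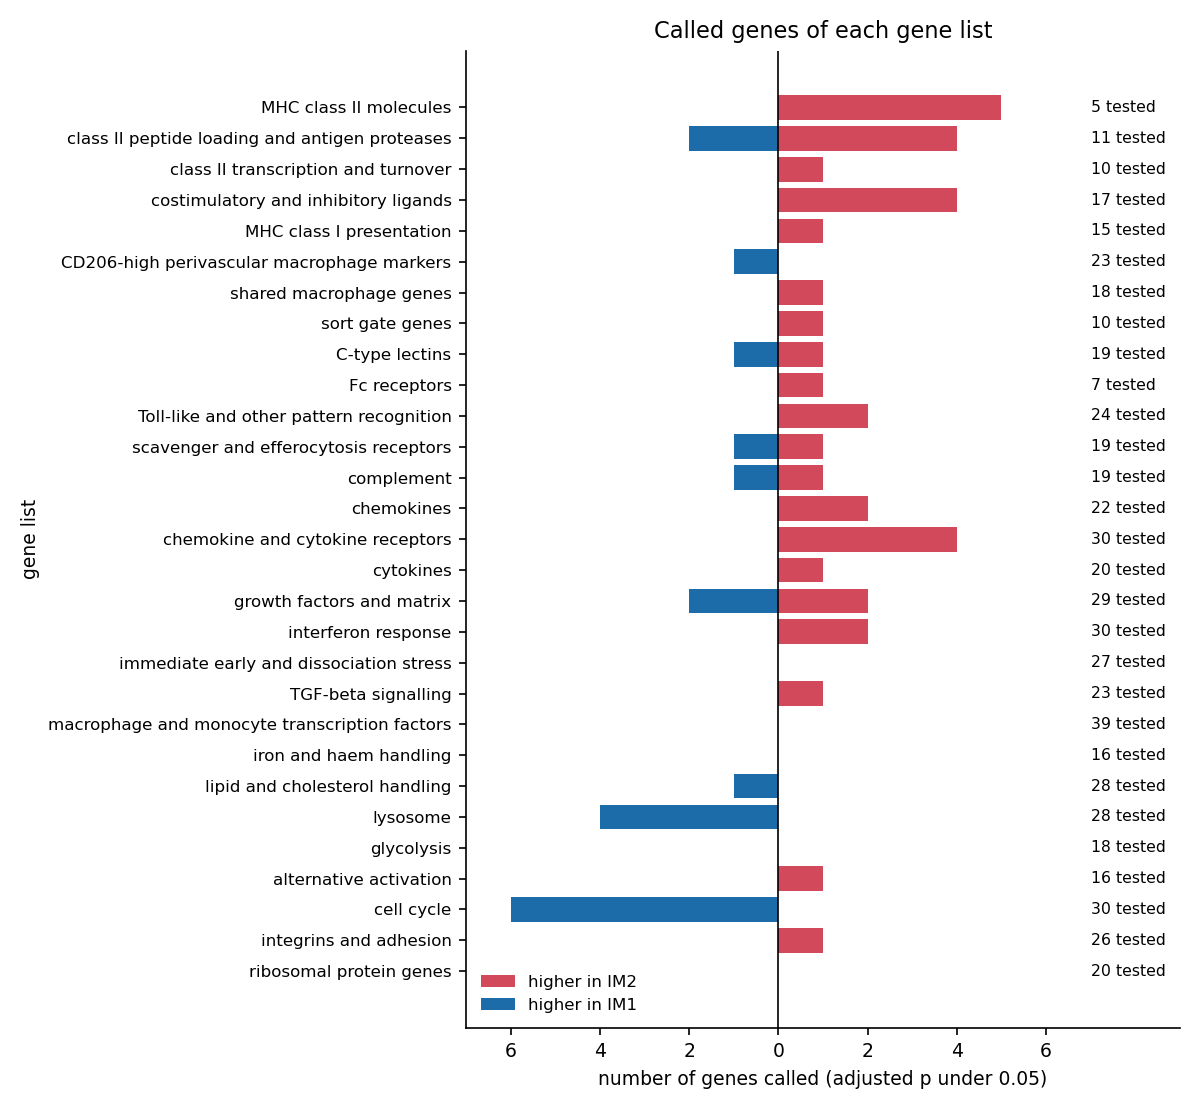
Number of called genes in each gene list (adjusted p under 0.05), with bars to the left of 0 for genes higher in IM1 and to the right for genes higher in IM2, and the number of genes tested at the right. The called class II molecules (5), receptors (4) and costimulatory ligands (4) were all higher in IM2, the called cell cycle (6) and lysosome (4) genes all higher in IM1, and the peptide loading and protease list held 4 and 2.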

How the data were processed

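The deposited values are counts of reads per gene and sequencing run, and the authors' table of counts per library equals the summed runs. They were made with featureCounts, per the file headers, unstranded, on Ensembl 78 gene models, without reads that fitted several places or several genes. Per the submitters' processing notes, alignment to mm10 used STAR 2.5.1b and counting Subread 1.5.0-p1. Gene coordinates are those of the authors' table (mm10, the same build as GRCm38), and symbols and gene types came from GENCODE M21, which named 98.0% of the 43346 genes.

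All 12 libraries entered 1 fit in edgeR 4.0.16 (R 4.3.3) with population as the only term, TMM scaling, filterByExpr (minimum count 10, leaving 14095 genes), robust dispersion, the quasi-likelihood test and Benjamini-Hochberg adjustment over all genes. Genes under an adjusted p of 0.05 were called. Levels are TMM-scaled CPM. On counts simulated from the IM1 and IM2 means over 13563 genes, 83% of 2-fold and 99% of 4-fold changes were recovered, and 5.21% of calls were false. Changed genes were drawn from the more abundant ones, and every population otherwise had the same means. Outlying libraries and letter effects were not simulated, so these rates may not hold for the real libraries.

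Deviations from the population means correlated between IM1 and IM2 libraries of the same letter by 0.256 (A), 0.166 (B) and 0.292 (C), and between other pairs by -0.197 to -0.009. This is only a hint from the data that the letters pair the libraries, since the labels do not say what a letter marks. Named genes were protein-coding: the 15 largest called changes per direction with a mean of at least 10 CPM, the 10 largest differences of mean CPM per direction, and up to 4 called members of each list with its defining or few uncalled members; genes of the first 2 parts had no overlap between populations. Genes named outside this rule (Btnl1, Btnl2, Gm20513, Nfya and other uncalled list members) were chosen after their values were seen. The genes compared and the gene lists were chosen with earlier results of these data known. Alternatives included DESeq2 1.42.0, voom with sample quality weights (limma 3.58.1), other scalings and filters, fewer libraries, the replicate block, a fold threshold of 1.5 and leaving out each library.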

Additional observations from a re-analysis of the deposited data

How the results depend on the processing

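None of the 73 called genes that are named or held in the lists reversed under any of the 16 alternatives run; genes that were not called were not followed across them. The number of genes called, 241 (172 higher in IM2 and 69 higher in IM1), became 591 (370 and 221) with DESeq2, 941 (616 and 325) with no filter on low counts, where the prior degrees of freedom became infinite, and 934 (678 and 256) with voom and sample quality weights. It became 71 (54 and 17) when only the 6 IM1 and IM2 libraries were fitted, 149 (115 and 34) with the 9 interstitial libraries, and 76 (61 and 15) when a fold change beyond 1.5 was tested. With the replicate block, which takes same-lettered libraries as pairs, it became 392 (275 and 117). Leaving out each library gave 110 to 1904 genes, 83 to 1186 higher in IM2 and 27 to 718 higher in IM1. The cause of these shifts was not tested.

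Called genes of the gene lists, 49, became 90 with DESeq2, 117 with no filter, 22 with 6 libraries, 32 with 9 libraries, 80 with the replicate block, 103 with voom and 20 with the fold threshold, and 27 to 121 without each library. Called markers of other cell types, 5, became 12, 24, 3, 3, 11, 16 and 2 in the same order, and 3 to 18 without each library. Genes with different steps at the 2 gates, 329, became 578 with DESeq2, 646 with no filter, 621 with voom and 181 with the fold threshold, and 172 to 622 without each library; this test needs IM3 and was not made with 6 libraries. Upper-quartile scaling, DESeq2 size factors and a filter of 5 CPM in 3 libraries left every one of these counts within 1.5 times.

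Of 73 called genes named here or held in the lists, 27 were called under every alternative. The replicate block changed none of the 73, the fit of 6 libraries ended the call of 37, and leaving out 1 library ended between 0 (IM1 replicate B) and 33 (IM2 replicate B). Of the 43 named genes, 28 were called in all 6 of these fits, 17 of 19 higher in IM2 and 11 of 24 higher in IM1. On simulated counts 83% of 2-fold changes among the more abundant genes were recovered at this depth. Smaller changes, outlying libraries and letter effects were not simulated.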

Other observations

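Btnl2, a butyrophilin-like gene that lies next to the class II beta chain gene H2-Eb2, did not follow its neighbours. It stood at 48.7, 30.7 and 50.6 CPM in IM1 and 36.1, 27.1 and 35.8 CPM in IM2 (log2 fold change -0.39 ± 0.20, adjusted p = 0.318), and averaged 1.89 CPM in IM3, with no read counted in AM. For Btnl2 the step from IM2 to IM3 was -4.12 (adjusted p = 1.87e-07) and differed from the step at the MHC class II gate by 3.73 ± 0.36 (adjusted p = 6.21e-05). Cd163, a marker of the CD206-high kind, had 898.2, 965 and 1007 CPM in IM1 and 921.7, 970 and 861.8 CPM in IM2, and 78.2 CPM in IM3.

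More genes with their highest mean in IM2 were chosen from the called genes after their values were seen. C1qtnf1 stood at 28.7, 19.4 and 23.6 CPM in IM1, 45.3, 47.8 and 56.3 CPM in IM2 and 6.93 CPM on average in IM3 (difference of steps 3.91, adjusted p = 4.79e-05). Tenm4, a teneurin, stood at 1.22, 1.13 and 0.973 CPM in IM1, 8.05, 7.65 and 6.12 CPM in IM2 and 3.42 CPM in IM3 (3.79, adjusted p = 0.000497). Aldh1a2, an enzyme that makes retinoic acid, stood at 2.45, 1.92 and 3.31 CPM in IM1, 6.93, 8.98 and 9.96 CPM in IM2 and 5.93 CPM in IM3 (2.29, adjusted p = 0.00671), and its fall to IM3 was not called (adjusted p = 0.209). Nt5e, which encodes the ectonucleotidase CD73, went the other way, with 2.18, 3.45 and 2.34 CPM in IM1 and 0.301, 0.351 and 0.694 CPM in IM2 (-2.52 ± 0.34, adjusted p = 0.000918), and 67.9 CPM in AM.

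The T cell receptor alpha constant gene Trac had 48070, 13 and 0 reads in IM1 replicates A, B and C, 0, 15367 and 0 reads in IM2, 1, 8862 and 0 reads in IM3, and 0 reads in all AM libraries. Trbc2, the beta constant gene, had 104, 51 and 29 reads in the 3 libraries with high Trac and at most 1 read in any other. Of the other T cell genes, Cd3e had at most 1 read, Cd3g at most 8 and Cd8a 0 reads in every library. Cd4, on the same marker list, was not low: it averaged 201.4 CPM in IM1, 177.8 CPM in IM2, 59.7 CPM in IM3 and 0.0701 CPM in AM. Trac was not called between IM1 and IM2, with adjusted p = 0.834.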
